A study of Drosophila melanogaster with 12 samples.

Results

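The high-confidence ORC2 peaks of 2nd instar fat body that lie away from the outer ends of genes numbered 211 of the 797 high-confidence peaks of that stage, or 26.5%. They were chosen by an irreproducible discovery rate (IDR, the authors' score for the agreement of a peak between replicates, lower being better) under 0.1 and by their position. The midpoint of each lay over 1 kb from both outer ends of every annotated gene of Release 6 (dm6). Peaks at the centromeric end of the assembled X and in the histone gene array on 2L, both repeated sequence, were left out, which removed 32 peaks, 11 of them over 1 kb from any gene end. Of the 211 peaks, 168 (79.6%) had their midpoint inside the body of at least 1 gene and 43 (20.4%) between genes. The other 554 peaks outside both arrays lay within 1 kb of a gene end and serve as the comparison.

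The samples were fat body dissected by hand from pooled male wild-type OregonR larvae, with the testes removed, at 2nd instar (67 to 68 h after egg laying), mid-3rd instar (91 to 92 h) and late-3rd instar (wandering larvae). Each of the 3 stages had 2 ORC2 ChIP-seq replicates and 2 input libraries, for 12 libraries in all, and no mutant or treated group was compared. The deposited lists hold merged regions that name the peaks of each replicate, and high-confidence peaks with their IDR. They hold no read depth or peak height, so a peak missing from a later list may have lost ORC2 or may have failed the peak caller's threshold, and these cannot be told apart, nor can fewer cells with ORC2 at a site and less ORC2 per cell. For the stages in order, the whole lists held 4239, 2053 and 706 merged regions. In the order of replicates 1 and 2, single replicates contributed 4277 and 3831 peaks to the 2nd instar list, 930 and 1994 to the mid-3rd instar list, and 370 and 500 to the late-3rd instar list. Peak lists carry no expression, so the tissue label could not be checked against marker genes.

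The origin recognition complex (ORC) is the protein complex that binds chromosomal DNA and loads the replicative helicase, which makes a site able to start replication. ORC2 is 1 of its subunits. The larval fat body, an organ of nutrient storage and endocrine signalling, grows by endocycles, rounds of DNA replication without division that raise the ploidy of each cell. In flies ORC has no strict sequence motif and is found most often in open chromatin at the start sites of active genes. Sites inside long genes or far from any gene are the less common kind.

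All 211 peaks overlapped a merged 2nd instar region with peaks of both replicates, as did 762 of the 765 peaks outside the arrays. Since the IDR scores agreement between replicates, the selection nearly fixes this property. The 211 peaks fell in 202 distinct merged regions, and 30 of them lay within 5 kb of another, so neighbouring peaks can share a source. Their IDR ranged from 1.74e-05 to 0.0994 with a median of 0.0449, and 36 had an IDR under 0.01. The median IDR was 0.0487 for gene body peaks, 0.0388 for intergenic peaks and 0.0312 for the 554 peaks near gene ends. Their widths ranged from 296 to 4999 bp with a median of 1006 bp. The widest gene body peak, on 3R from 11196602 to 11201600, had its midpoint in cu, the fly nocturnin gene, and reached past the end of the gene, and the widest intergenic peak (4540 bp) lay on 3L from 27068628 to 27073167.

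The nearest gene end lay at a median distance of 5.8 kb, and 63 peaks, 49 in gene bodies and 14 between genes, lay over 10 kb from one. Just inside the limit were a peak in alpha-Est8 on 3R (1007 bp from a gene end, IDR 0.0815, not listed again later) and a peak in CG43110 on 2R (1010 bp, IDR 0.0837, listed again at both later stages). Just outside it were 2 peaks on 3L, in Baldspot (986 bp from snRNA:U12, IDR 0.0947) and next to Rcd2 (991 bp, IDR 0.0961), and neither was listed again. The limit therefore separated peaks of similar distance and similar IDR.

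**Figure D1:**
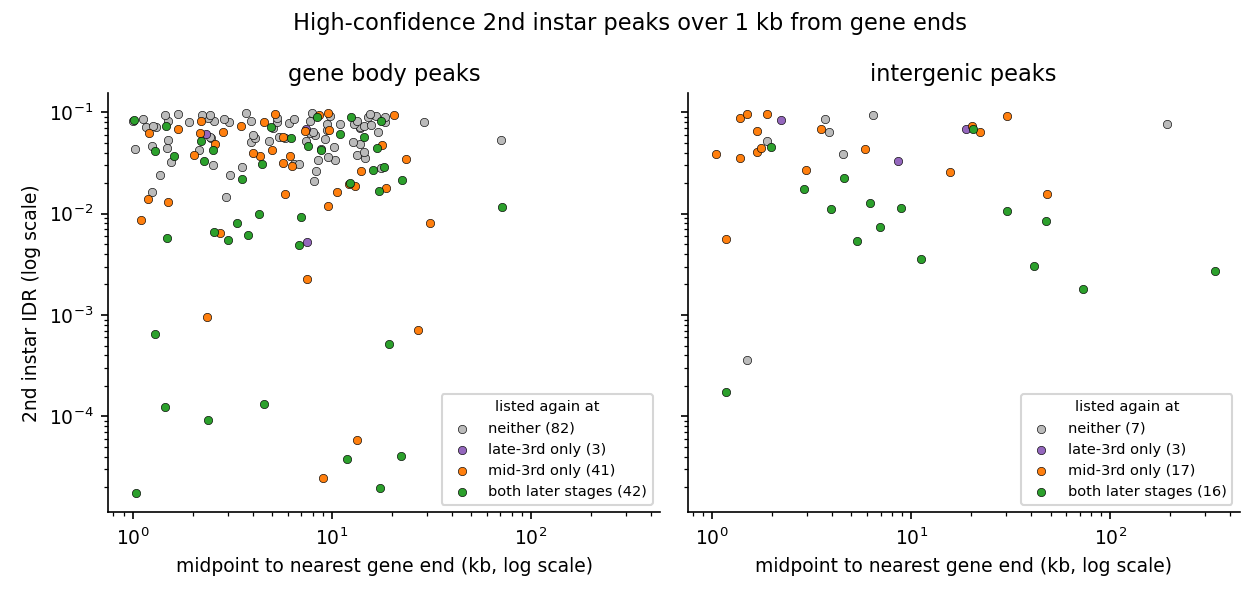
Each point is 1 high-confidence 2nd instar peak over 1 kb from gene ends, with its midpoint's distance to the nearest gene end in kb on a log x axis and its 2nd instar IDR on a log y axis, for 168 gene body peaks (left) and 43 intergenic peaks (right). Colours give the later stages at which a merged region lay within 1 kb, and most of the 89 grey peaks, listed again at neither stage, sit near the top at high IDR.

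Per length of sequence, the members were sparse. On the chromosome arms outside the 5 Mb next to each centromere, gene bodies over 1 kb from gene ends span 53.6 Mb and held 151 peaks, or 2.82 per Mb. Intergenic sequence beyond that distance spans 19.4 Mb and held 18 peaks, or 0.93 per Mb. Sequence within 1 kb of gene ends spans 34.5 Mb and held 465 peaks, or 13.5 per Mb. In the 5 Mb next to the centromeres the order of the members turned, with 1.04 peaks per Mb in gene bodies (11 peaks) and 1.67 per Mb between genes (18 peaks). Most intergenic members came from outside the rest of the arms: 25 of 43 lay next to a centromere, on chromosome 4 or on the Y, against 17 of 168 gene body members. These densities follow from the positions used in the choice and were not tested.

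Gene body peaks were followed first. A merged mid-3rd instar region lay within 1 kb of 83 of 168 (49.4%, 95% Wilson interval 41.9 to 56.9), against a background of 63.9% over all 765 high-confidence 2nd instar peaks outside the arrays. At late-3rd instar the count was 45 of 168 (26.8%), against a background of 29.2%. Intervals here treat peaks as independent and cover counting error only. Compared with peaks near gene ends, of which 373 of 554 (67.3%) were listed again at mid-3rd instar, gene body peaks were 17.9 percentage points lower (Newcombe interval −26.3 to −9.43). At late-3rd instar, when 159 of 554 (28.7%) of the gene end peaks were listed, the difference was −1.91 points (−9.18 to 6.1), which lies within counting error.

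The difference was also taken within ranges of IDR. On the chromosome arms, gene body peaks with an IDR under 0.05 were listed at mid-3rd instar in 53 of 77 cases (68.8%) and peaks near gene ends in 213 of 293 (72.7%), a difference of −3.87 points (−15.9 to 6.82). With an IDR from 0.05 the shares were 19 of 74 (25.7%) and 83 of 172 (48.3%), a difference of −22.6 points (−33.9 to −9.37). These 2 intervals overlap, and the difference between the IDR ranges was not tested. Over all 211 members the share listed at mid-3rd instar was 85.7% in the third of lowest IDR (up to 0.0303), 45.1% in the next and 34.3% in the last (from 0.0644). Over all 765 peaks outside the arrays the same ranges gave 81.1%, 54.2% and 45.4%, so the shares fell with IDR in the whole list too. The shares at late-3rd instar were 55.7%, 21.1% and 14.3% for the members and 45.3%, 21.5% and 10.1% for all peaks. Since the IDR also chose the members, these shares are given as a description.

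**Figure D2:**
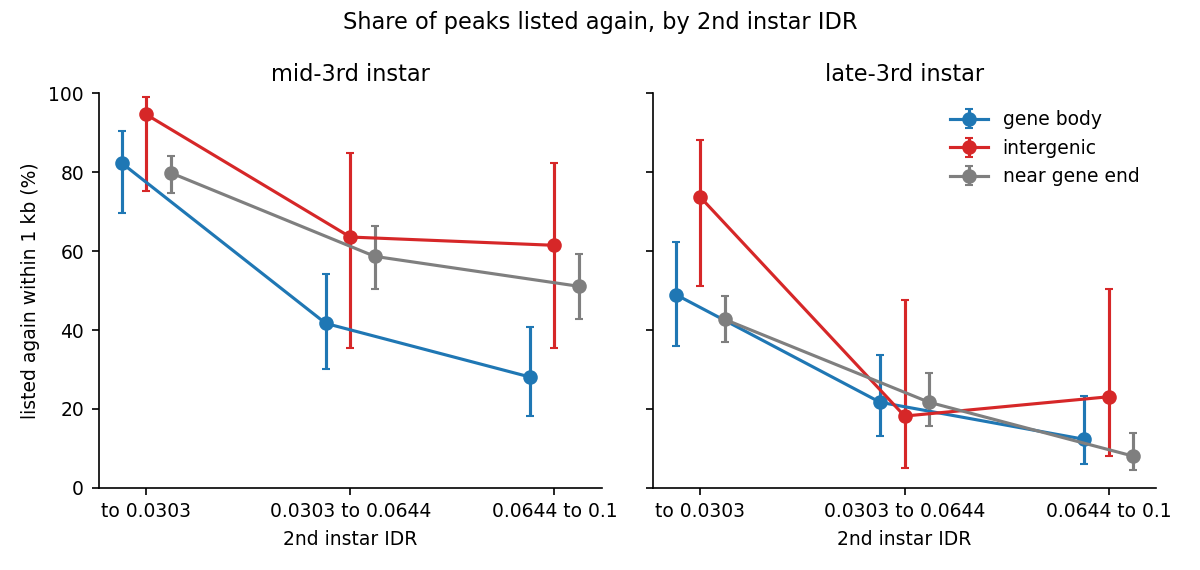
The y axis is the percentage of high-confidence 2nd instar peaks with a merged region within 1 kb at mid-3rd instar (left) or late-3rd instar (right), and the x axis is the 2nd instar IDR in 3 ranges bounded by 0.0303 and 0.0644. Points are shares, bars are 95% Wilson intervals, and in both stages the highest share of each class is at the lowest IDR.

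Intergenic peaks were listed again more often than gene body peaks. At mid-3rd instar 33 of 43 (76.7%, 62.3 to 86.8) had a merged region within 1 kb, against a background of 63.9%. At late-3rd instar 19 of 43 (44.2%) did, against 29.2%. Compared with gene end peaks they were 9.42 points higher at mid-3rd instar (−5.56 to 20.3), which lies within counting error. At late-3rd instar they were 15.5 points higher (1.19 to 30.6). On the arms outside the 5 Mb next to the centromeres they were not higher at late-3rd instar. There 4 of 18 intergenic peaks (22.2%) and 119 of 465 gene end peaks (25.6%) were listed. Gene body peaks were 27.3 points lower than intergenic peaks at mid-3rd instar (−39.9 to −11) and 17.4 points lower at late-3rd instar (−33.3 to −1.9). The place of the peaks moved with this difference. Without the 5 Mb next to the centromeres, chromosome 4 and the Y, the difference was −19 points at mid-3rd instar (−37.7 to 5.26), and at late-3rd instar it turned to 2.94 points (−20.9 to 18.1), with 38 of 151 gene body and 4 of 18 intergenic peaks listed. Next to the centromeres 16 of 18 intergenic peaks were listed at mid-3rd instar and 11 of 18 at late-3rd instar, against 6 of 11 and 3 of 11 gene body peaks. All high-confidence peaks there were listed in 76 of 95 cases (80%) at the first of these stages and in 36 of 95 (37.9%) at the second. The parts of position and gene context in the late-3rd instar difference cannot be told apart with so few peaks.

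All 9 members on chromosome 4, 5 in gene bodies and 4 between genes, were listed at mid-3rd instar, and 6 of 9 at late-3rd instar. There the gene end peaks did likewise, with 23 of 23 and 18 of 23. Of the 4 members on the Y, 1 was listed at the first and 2 at the second of these stages.

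**Figure D3:**
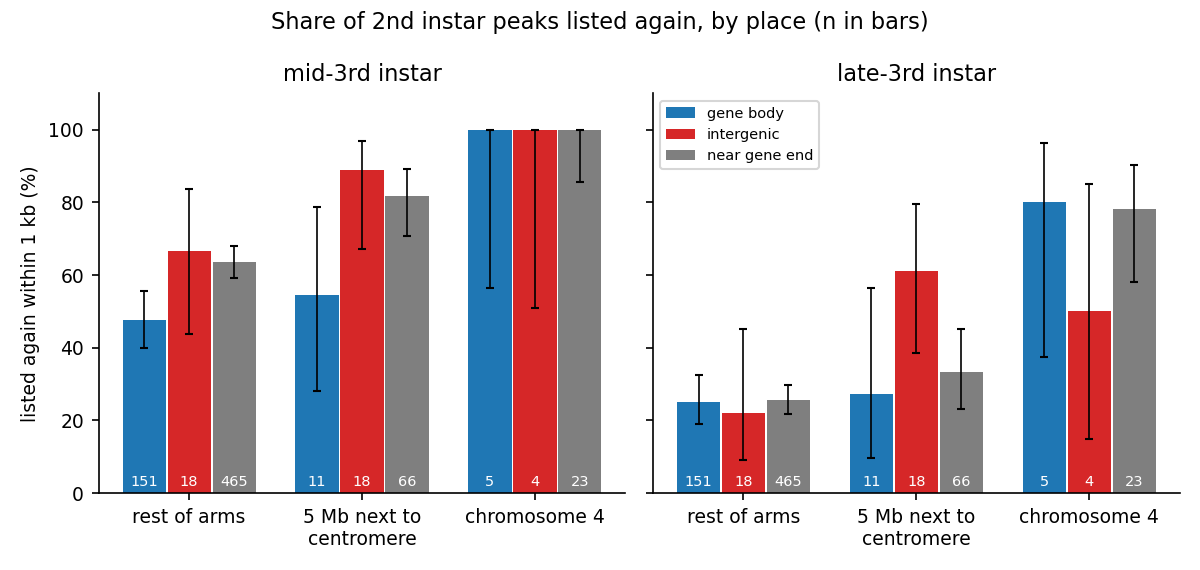
Bars give the percentage of high-confidence 2nd instar peaks with a merged region within 1 kb at mid-3rd instar (left) and late-3rd instar (right), by class and by place, with 95% Wilson intervals and the number of peaks in each bar. Intergenic peaks next to the centromeres reach 88.9% and 61.1%, while on the rest of the arms the late-3rd instar shares of the classes lie between 22.2% and 25.6%.

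The later replicates of a stage differed widely. A peak of mid-3rd instar replicate 1 lay in a region within 1 kb of 71 of the 211 members, and a peak of replicate 2 in such a region for 104, a mean of 87.5 ± 23.3 (SD, n = 2). The late-3rd instar replicates gave 22 and 58 members, a mean of 40 ± 25.5 (SD, n = 2). In the order given, these were 33.6%, 49.3%, 10.4% and 27.5% of the members. Over all 765 peaks outside the arrays the shares were 41.3%, 56.2%, 5.62% and 27.3%. They thus fell between the stages in the whole list too. Both mid-3rd instar replicates were thus above both late-3rd instar replicates, by 47.5 members on average. With 2 replicates per stage the two-sided exact permutation test gave p = 0.333, the smallest it allows, so the difference cannot pass a threshold of 0.05 in this design. Nothing in the labels says whether the replicates of a stage were dissected on separate days.

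Gene body peaks were listed less often than intergenic peaks in each of the 4 later replicates. The shares were 28% and 55.8% in mid-3rd instar replicate 1 and 45.2% and 65.1% in replicate 2. In the late-3rd instar they were 5.95% and 27.9% in replicate 1 and 23.8% and 41.9% in replicate 2. The mean difference was −21.9 ± 4.25 points (SD, n = 4 replicates), and an exact two-sided sign-flip permutation test gave p = 0.125, the smallest it allows, or 0.25 after Benjamini-Hochberg adjustment over the 2 tests. Without the 5 Mb next to the centromeres, chromosome 4 and the Y, the difference turned in late-3rd instar replicate 2, where 34 of 151 gene body peaks (22.5%) and 3 of 18 intergenic peaks (16.7%) were listed. There the mean difference was −7.44 ± 10.2 points (SD, n = 4 replicates), with an exact sign-flip permutation p of 0.375.

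Late-3rd instar replicate 1 stood out when all members were pooled. It listed 22 of 211 members (10.4%) but 21 of 554 gene end peaks (3.79%), a difference of 6.64 points (2.69 to 11.7). This excess was uneven, with 10 of 168 gene body members (5.95%) and 12 of 43 intergenic members (27.9%) listed. On the arms it listed 10 of 169 members (5.92%) and 15 of 465 gene end peaks (3.23%). Next to the centromeres the counts were 8 of 29 and 0 of 66. Replicate 2 listed 27.5% and 27.3%, a difference of 0.232 points (−6.55 to 7.53). The same 2 classes therefore compared differently in the 2 late libraries.

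**Figure D4:**
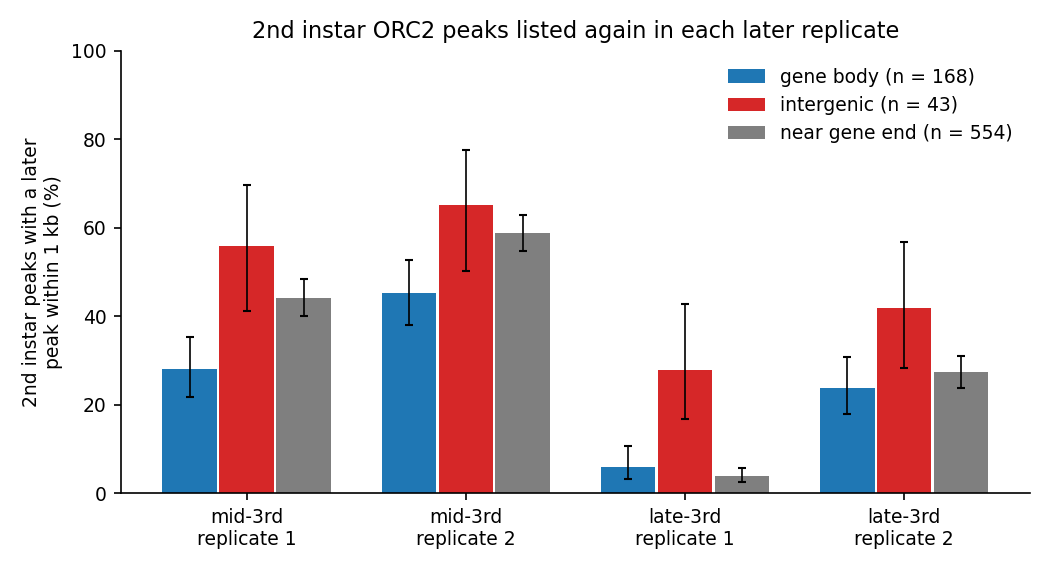
Bars give the percentage of high-confidence 2nd instar peaks with a region within 1 kb that holds a peak of the named later replicate, for 168 gene body, 43 intergenic and 554 gene end peaks, with 95% Wilson intervals. Intergenic peaks have the highest bar in all 4 replicates, and in late-3rd instar replicate 1 the gene end bar falls to 3.79%.

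By pattern, 58 members (27.5%) were listed at both later stages, 58 (27.5%) at mid-3rd instar only, 6 (2.84%) at late-3rd instar only and 89 (42.2%) at neither. Over all 765 peaks outside the arrays the shares, in the same order, were 26.7%, 37.3%, 2.48% and 33.6%. The shares at both stages and at late-3rd instar only were thus near those of the whole list. Among gene body members 82 of 168 (48.8%) were listed at neither stage, and among intergenic members 7 of 43 (16.3%), against 168 of 554 (30.3%) of the gene end peaks. The kept members lay at 114 distinct mid-3rd instar and 63 distinct late-3rd instar regions. Many later regions are exactly 600 bp wide (1403 of 2053 at mid-3rd instar and 586 of 706 at late-3rd instar), so their edges may be set rather than measured. Direct overlap with a later region was found for 105 and 59 of the 211, and for 464 and 209 of the 765. Of the members, 42 had their nearest region over 10 kb away at both later stages, a count not taken over all peaks. For members not listed again, the median distance to the nearest region was 10.3 kb at mid-3rd instar and 44.5 kb at late-3rd instar. Over all 765 peaks these medians were 17 and 59.3 kb.

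A stricter question is whether a high-confidence peak, again with an IDR under 0.1, lay within 1 kb at the later stage. At mid-3rd instar this held for 34 of 211 members (16.1%), against a background of 19.1% and 112 of 554 (20.2%) near gene ends, and the difference from the latter was −4.1 points (−9.71 to 2.28). At late-3rd instar it held for 11 of 211 members (5.21%), against a background of 1.83% and 3 of 554 (0.542%) near gene ends, a difference of 4.67 points (2.17 to 8.57). On the arms alone the late-3rd instar counts were 5 of 169 and 2 of 465, a difference of 2.53 points (0.5 to 6.32). These intervals treat peaks as independent, although 2 of the 5 members are neighbours within 1 gene, nAChRalpha3. With so few loci the differences are given as a description. The 3 gene end peaks lay near pan on chromosome 4, CG5895 on 3L and CG30095 on 2R. A high-confidence call rests on agreement between the replicates, and 16 of 211 members and 13 of 554 gene end peaks were listed in both late-3rd instar replicates.

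The 11 members with a late-3rd instar high-confidence peak were 5 gene body and 6 intergenic peaks. All 11 were listed in both late-3rd instar replicates, 10 were listed at mid-3rd instar, and 6 had high-confidence peaks at all 3 stages. By place, 5 lay on the arms, 5 in the 5 Mb next to a centromere and 1 on the Y.

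The gene nAChRalpha3, which encodes a subunit of the nicotinic acetylcholine receptor, spans 91 kb of the X and held 2 members. The first, from 8293412 to 8294287, had an IDR of 1.98e-05 at 2nd instar. It was listed only by replicate 2 at mid-3rd instar and by both replicates at late-3rd instar, with an IDR of 0.0882. The second, from 8295409 to 8296172, had an IDR of 0.000523, 0.00691 and 0.037 at the 3 stages and was listed in all 4 later replicates. These 2 peaks were the only 2nd instar regions within the gene or 10 kb of it, and the later stages had the same number of regions at the same places.

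Another 2 gene body members of this kind had a higher IDR at 2nd instar. CG34353 on 3R, a gene of 138 kb, held a member from 27867649 to 27868256 with an IDR of 0.0221, 0.0952 and 0.053 at the 3 stages. CG17684 on 2R, a gene of 396036 bp next to the centromere, held a member from 1937709 to 1938339 with an IDR of 0.0116 at 2nd instar and 0.0856 at late-3rd instar.

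Between genes, the member nearest to bgm, the bubblegum acyl-CoA synthetase gene, lay on 2L from 14010960 to 14012695 and had the lowest IDR of the intergenic class. Its IDR was 0.000176, 0.0102 and 0.0542 at the 3 stages, and its midpoint was 1.18 kb from the gene. It was the only intergenic member on the chromosome arms with a late-3rd instar high-confidence peak.

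The next 4 lay next to the centromeres of chromosomes 3 and 2, where genes are far apart. The member on 3L from 26704593 to 26705179 was the farthest from any gene, 334 kb from CG42598, and had an IDR of 0.0027, 0.0299 and 0.0454 at the 3 stages. Those on 3L from 27068628 to 27073167 (IDR 0.00359, then 0.0387 at late-3rd instar) and from 27076040 to 27077516 (0.00538, then 0.0564) lay 11.2 and 5.31 kb from CG40228. They were listed in both mid-3rd instar replicates without a high-confidence peak. The member on 2R from 4100352 to 4100886, 30.4 kb from CG17683, had an IDR of 0.0105, 0.093 and 0.0507. Reads in such repeat-rich sequence can be hard to place, and the part of mapping in these peaks was not tested.

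The last of the 11 lay on the Y from 883933 to 884400, 8.58 kb from the annotated Suppressor of Stellate copy Su(Ste):CR42407, a member of a repeated gene family. Its IDR was 0.0333 at 2nd instar and 0.0933 at late-3rd instar, and no mid-3rd instar region lay within 1 kb. Near-identical copies can share reads, so its position is uncertain.

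A low IDR at 2nd instar did not always go with a later peak. The intergenic member on 3R from 4962609 to 4963084, 1.5 kb from Jhbp2, had the second lowest IDR of its class (0.000361) and was listed at neither later stage, with the nearest mid-3rd instar region 14.3 kb away. The member in cic, which encodes the HMG-box repressor Capicua, had an IDR of 2.47e-05 on 3R from 20260976 to 20262640. It was listed in both mid-3rd instar replicates but in neither late-3rd instar replicate, although a late-3rd instar region lay 1997 bp away. The intergenic members on 3L from 27007636 to 27011113 (IDR 0.00181, 72.7 kb from CG40228) and from 24442604 to 24443408 (0.00307, 41.4 kb from nvd, a gene of ecdysteroid synthesis) were listed at both later stages. Of the 10 members of lowest IDR, all 10 were listed at mid-3rd instar, 8 at late-3rd instar, and 8 had a high-confidence peak at mid-3rd instar.

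The 3 intergenic members farthest from genes did not behave alike. Beside those 334 and 72.7 kb from a gene, a member on the Y from 2787915 to 2788618 lay 193 kb from the nearest annotated gene, had an IDR of 0.077 and was listed at neither later stage. Some intergenic members of higher IDR lay close to genes of fat body or hormone biology, and these were picked out after their values were seen. A member on 3L from 14607457 to 14609757 lay 5.85 kb from shd, the gene of the P450 enzyme that makes 20-hydroxyecdysone, and was listed in both mid-3rd instar replicates and in no late-3rd instar replicate. A member on 3L from 64750 to 65347 lay 1.38 kb from Lsp1gamma, a larval serum protein gene of the fat body, and was listed by mid-3rd instar replicate 2 only.

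The 168 gene body members lay in 148 genes, 143 of them protein-coding, and 11 members lay inside 2 or more overlapping genes. The host genes were long: for each member the longest host had a median length of 41.2 kb, and 62 members (36.9%) lay in hosts over 50 kb. The rule itself needs a host of at least 2 kb, and a longer gene has more room. Of 5748 genes of 2 to 10 kb, 18 held a member (0.313%), of 1716 genes of 10 to 50 kb 84 did (4.9%), and of 325 longer genes 46 did (14.2%). The summed lengths of these classes were 23.7, 36.9 and 32.6 Mb, so the shares per gene are not densities per length. The gene table gives neither strand nor exons, so start sites, introns and untranslated regions were not told apart. A second start site inside a long gene would not be seen by the rule.

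Among the 27 genes with 2 or more members, 7 had all their members listed at mid-3rd instar and 7 had none. In 4 of them, LpR2, SNF4Agamma, Treh and nAChRalpha3, all members were listed at both later stages. In 12 none was listed at late-3rd instar. In 2 cases a pair of genes shares its members, CG43739 with sky on 2L and MSAmiP with lncRNA:iab8 in the bithorax complex on 3R, since these genes overlap. The genes of each pair are counted separately among the 27 and among the 12.

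Genes of the ecdysone response held 8 members. Ecdysone is the steroid hormone that times moulting and metamorphosis, and it acts through the nuclear receptor EcR on a cascade of transcription factors. Of 16 genes listed, 4 held members (25%), against 148 of 7789 annotated genes over 2 kb (1.9%). The listed genes are long, and of the 11 over 30 kb 4 held members, against 79 of 689 genes of that length (11.5%). The other 12 held none, among them usp, the partner of EcR, and br, Hr3 and Eip93F, further transcription factors of the cascade.

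EcR, 81.2 kb on 2R, held 2 members. One, from 6151077 to 6151551 (IDR 0.00065), was high-confidence again at mid-3rd instar (IDR 0.00835) and was listed in both mid-3rd instar replicates and late-3rd instar replicate 2. Its nearest gene end belongs to a tRNA gene within EcR. The other, from 6141772 to 6145530 (3759 bp, IDR 0.0627), was listed in both mid-3rd instar replicates only.

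Eip75B, which encodes a nuclear receptor of the early response, spans 114 kb of 3L and held 4 members, the most of any gene. The member of lowest IDR, from 18062935 to 18063473 (0.00569), lay 1.49 kb from the end of the gene and was listed by mid-3rd instar replicate 1 and late-3rd instar replicate 2. The member from 18018562 to 18020178 (0.0289) was listed by replicate 2 at both stages. Its neighbour from 18016156 to 18018035 (0.0944) was listed by mid-3rd instar replicate 2 only, and the member from 17995199 to 17996198 (0.0719) by none. The 12 merged regions at the gene at 2nd instar fell to 6 and then 4, counted with 10 kb on either side. Over the whole lists 4239 regions fell to 2053 and then 706, so a fall is not particular to this gene.

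Eip74EF, an ETS-domain transcription factor gene of the same early response, held 1 member on 3L from 17596860 to 17597282, with an IDR of 4.09e-05 and 22.3 kb from a gene end. It had a high-confidence peak at mid-3rd instar (IDR 0.0015) and was listed in both mid-3rd instar replicates and late-3rd instar replicate 2. The single member in ftz-f1, a nuclear receptor gene that acts between the hormone pulses, had an IDR of 0.0827 and was listed at neither stage.

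Genes of fat body function and nutrient signalling also held 8 members, in InR, foxo, Hnf4 and LpR2. These are 4 of the 34 listed genes over 2 kb (11.8%), against 1.9% of all annotated genes over 2 kb. Of the 3 listed genes over 30 kb all 3 held members, against 79 of 689 genes of that length (11.5%). The insulin receptor gene InR, 49.1 kb on 3R, held 2 members, from 21579991 to 21580996 (IDR 0.0451) and from 21583370 to 21584865 (0.059). Neither was listed later, and the nearest mid-3rd instar regions lay 38.2 and 34.3 kb away. Of 9 merged regions at the gene at 2nd instar, 1 region was left at each later stage, at the other end. Regions also fell over the whole lists, from 4239 to 2053 and 706.

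The transcription factor gene foxo, which insulin signalling holds in check, spans 31 kb of 3R and held 3 members. That from 14058590 to 14059361 (IDR 0.0378) was listed by mid-3rd instar replicate 2 only, and those from 14067098 to 14068770 (0.0759) and from 14070116 to 14071534 (0.0702) by none. The 2 intergenic members next to the gene, from 14048564 to 14049721 and from 14054780 to 14055345, were also listed at neither stage. Within 10 kb of foxo, 9 merged regions at 2nd instar became 3 and then 1, beside 4239, 2053 and 706 in the whole lists.

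On the same list, LpR2, a receptor gene for lipophorin, the carrier of lipids in the haemolymph, held 2 neighbouring members on 3R, from 25720843 to 25721614 (IDR 0.0443) and from 25720004 to 25720520 (0.0822). Both were listed by replicate 2 at both later stages and by replicate 1 at neither. Hnf4, a nuclear receptor gene of lipid breakdown, held 1 member on 2L from 8697025 to 8700062 (0.0711), listed in both mid-3rd instar replicates and late-3rd instar replicate 2. These are single loci, and no difference between them and the InR and foxo members was tested.

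None of the 16 genes over 2 kb on the list of replication and endocycle genes, which holds ORC and MCM subunits, CycE and E2f1, held a member. The list has 1 gene over 30 kb. With 1.9% of all annotated genes over 2 kb holding a member, 16 genes are too few to show an absence. Of the 8 homeotic genes 1 held a member (12.5%), against the same 1.9%. Of the 4 over 30 kb 1 did, against 11.5% of all genes of that length. This was Abd-B, 45 kb on 3R, with a member from 16969517 to 16970237 and an IDR of 0.000962. It was listed by mid-3rd instar replicate 2 only. In the same complex 2 members lay in MSAmiP and lncRNA:iab8. The member from 16869306 to 16869932 (0.0188) was listed in both mid-3rd instar replicates and that from 16857252 to 16858251 (0.0163) in none.

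Genes outside these lists also held clusters. The growth-promoting TSC-22 family gene bun, 91.1 kb on 2L, held 3 members. That from 12520100 to 12520726 (IDR 3.76e-05) was high-confidence again at mid-3rd instar (0.0163) and was listed by late-3rd instar replicate 2. That from 12463944 to 12464261 (0.0399) was listed by mid-3rd instar replicate 2, and that from 12483044 to 12484733 (0.0512) by none. The gene held 18 merged regions at 2nd instar and 10 at each later stage, counted with 10 kb on either side. In the whole lists there were 4239, 2053 and 706.

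The gene shn, a zinc finger transcription factor gene of Dpp signalling, spans 58.3 kb of 2R and held 3 members. That from 11173359 to 11173970 (IDR 0.000124) was listed in both mid-3rd instar replicates, with a high-confidence peak (0.0137), and in late-3rd instar replicate 2. That from 11184861 to 11186251 (5.81e-05) was listed in both mid-3rd instar replicates only, also with a high-confidence peak (0.0681), and that from 11188166 to 11190255 (0.0637) in none. The 8 merged regions at the gene at 2nd instar became 3 and 2, beside 4239, 2053 and 706 in the whole lists.

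**Figure D5:**
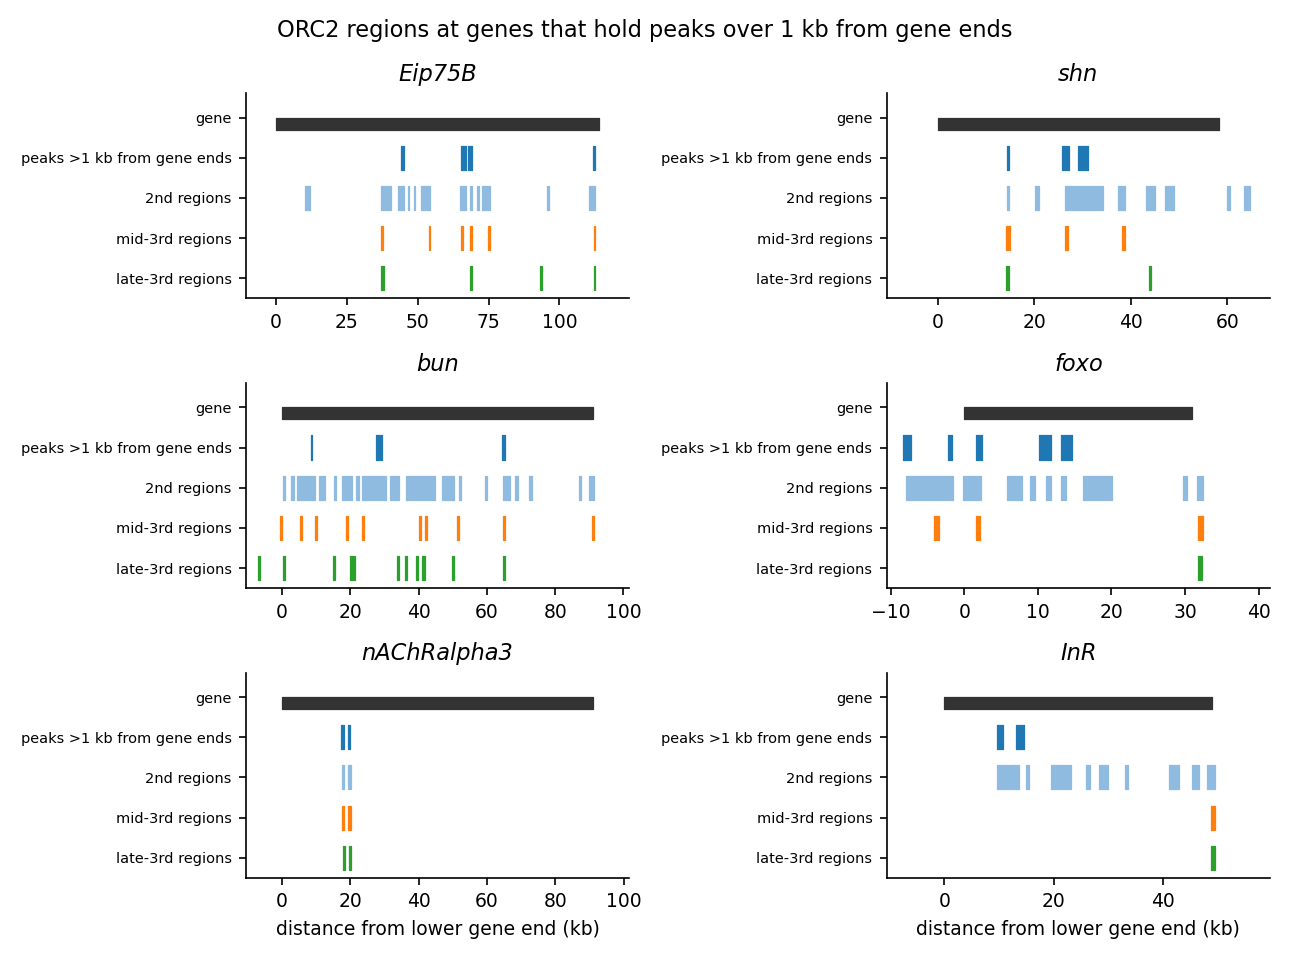
For 6 genes, bars show, from top to bottom, the gene, its high-confidence 2nd instar peaks over 1 kb from gene ends, and the merged ORC2 regions of 2nd, mid-3rd and late-3rd instar, against the distance in kb from the gene end of lowest position, with 10 kb on either side. At nAChRalpha3 both regions are present at all 3 stages, while at InR 9 regions at 2nd instar become 1 region at the far end of the gene. Over the whole lists the regions number 4239, 2053 and 706.

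Treh, the trehalase gene of 14.9 kb on 2R, and SNF4Agamma, the gene of the gamma subunit of AMP-activated protein kinase on 3R, each held 2 members, and all 4 were listed in both mid-3rd instar replicates and in late-3rd instar replicate 2. Of the remaining genes with 2 members, klar and CG34353 had both listed at mid-3rd instar, but only 1 at late-3rd instar. Pdp1, Snoo, bin3 and Myo81F had 1 listed at each later stage. In gish and in CG43739 with sky 1 was listed, at mid-3rd instar only, and in drn 1, at late-3rd instar only. In CG46385, Dmtn, Rtnl1, cv-c and gpp, the last of which encodes the histone H3 lysine 79 methyltransferase, none was listed at either stage.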

How the data were processed

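The lists come from fat body of 3 larval stages, each with 2 ORC2 ChIP-seq replicates and 2 inputs. Per the labels and methods, the authors aligned reads with Bowtie2, called peaks with MACS2 against input at a q-value of 0.05, merged the peaks of both replicates, and deposited the high-confidence peaks with IDR, a score. The methods name dm3, but positions reach 32078831 on 3R, and a Release 6 gene end was found within 1 kb of 72.1% of the 797 peaks, against 38.1% once gene ends were shifted by 2000 bp. The lists were therefore read as Release 6 and nothing was converted. Depth is unknown.

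Gene ends came from 17807 RefSeq genes of Release 6, without strand or exons. No genome was used, so no sequences are shown. A peak counted as listed again where a later merged region lay within 1 kb, edge to edge. For single replicates that region had to name a peak of the replicate. Shares carry 95% Wilson intervals and differences Newcombe intervals. Exact permutation tests were run over replicates. No chance test was run over peaks or genes. The scripts were tested on simulated data.

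The members, the gene lists and the tests were chosen with earlier results of these data known. Regions named were the 5 members of lowest IDR and the widest of each class, all with a late-3rd instar high-confidence peak, those next to the 1 kb limit, the 3 farthest from genes, and host genes with 2 or more members or on the lists. A region that this rule names is not reported here. The listed names Eip71CD and Tor were matched as MsrA and mTor. Alternatives were the distances, the later list, the IDR limit, the gene set, the arrays, leaving out each replicate and, added after seeing the data, leaving out the 5 Mb next to the centromeres, chromosome 4 and the Y. Python 3.11.15, numpy 2.4.6, pandas 2.3.3 and matplotlib 3.10.9 were used.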

Additional observations from a re-analysis of the deposited data

How the results depend on the processing

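The share listed again at mid-3rd instar (55%) moved to 67.8% with edges within 5 kb, and the shares at both later stages (55% and 30.3%) to 16.1% and 5.21% with the later high-confidence peaks and to 74.1% and 43.8% with an IDR under 0.05. The differences between gene body and intergenic peaks, −27.3 and −17.4 points, became −14.8 and −11 with high-confidence peaks and −19.5 and −20.4 with an IDR under 0.05, which left 112 members, 85 of them in gene bodies. With a gene end distance of 2 kb the late-3rd instar difference was −30. Without the 5 Mb next to the centromeres, chromosome 4 and the Y, an alternative chosen after seeing the data, the differences were −19 and 2.94, the latter reversed, with fewer peaks. Leaving out each later replicate gave shares of 33.6 to 49.3% at mid-3rd instar and 10.4 to 27.5% at late-3rd instar, differences of −27.8 to −19.9 and −22 to −18.1 points, and a gap between stages of 29.5 to 65.5 members. The other 47 values of 65 moved by less than the spread between replicates or, for counts, by under 1.5 times. The causes of these shifts were not tested. With the replicate number as a block, mid-3rd minus late-3rd instar was 49 and 46 members, a mean of 47.5 as without it (exact sign-flip permutation p = 0.5, the smallest that 2 pairs allow). The labels do not say that a number marks a shared preparation. Depth, which the lists do not give, limits what a missing peak shows.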
